A study of Mus musculus with 20 samples.

Results

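The transcripts of 9 antioxidant enzyme genes, Hmox1, Sod1, Sod2, Sod3, Cat, Gpx1, Gpx3, Prdx1 and Prdx2, were followed in limb muscle and heart of dysferlin-deficient and normal mice. The genes were listed by name, and each probe set that the array annotation assigns to any of them was taken, which gave 13 of the 12488 probe sets on the array. The rule used no measured value, but the members were chosen with earlier results of these data known. A probe set is a group of short probes read out as 1 intensity per array. Of the 13 probe sets, 12 were bright enough to be tested. The exception, probe set 100330_at of Prdx2, read between 0.5 and 8.4 on the 20 arrays, near the floor of 3.1.

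The 20 arrays formed 4 groups of 5, and their total RNA came from female mice aged 32 to 34 weeks. C57BL/6 mice supplied normal quadriceps and normal left ventricle. SJL/J mice supplied the same tissues, and this inbred strain carries an in-frame deletion of 171 bp in the dysferlin gene that removes 57 residues from the protein. Dysferlin serves the resealing of the muscle fibre membrane. All cells of an SJL/J mouse carry the deletion and the rest of that strain's genome, so the effect of the deletion and that of the strain cannot be told apart. The title and source label of the 5 SJL/J quadriceps samples name quadriceps, whereas their extraction text names left ventricle, and quadriceps was used here.

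These enzymes form a chain. Superoxide, which leaks from respiring mitochondria and is made on purpose by the oxidases of phagocytes, is turned into hydrogen peroxide by the superoxide dismutases, of which Sod1 works in the cytosol, Sod2 in the mitochondrial matrix and Sod3 outside the cell. Catalase, the glutathione peroxidases and the peroxiredoxins then reduce the peroxide. Heme oxygenase breaks down heme, and its gene is a classical target of Nrf2, the transcription factor that answers oxidative stress through antioxidant response elements. Muscle depends on these enzymes because contraction and respiration generate oxidants, and macrophages that enter damaged muscle add more.

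Promoters of the members were searched for the core of the antioxidant response element, because the Nrf2 pathway is among the gene groups described here. Of the 9 genes, 7 had an entry in the RefSeq promoter table of build GRCm38.p6, and Hmox1 and Sod3 had none. The searched window was the 250 bases before the start of each gene. The core motif TGACNNNGC, read on both strands, was found in 10.2% of 32851 promoters of this length, and among the members in Prdx1 and Sod1. The AP-1 site TGAGTCA was found in 4.46% of them, and among the members in Prdx1 alone. Both sequences are shown from 5′ to 3′ on the gene's strand, with every match of either motif in capitals: Prdx1 at chr4:116685349-116685598 (plus strand) and Sod1 at chr16:90220512-90220761 (plus strand).
Prdx1: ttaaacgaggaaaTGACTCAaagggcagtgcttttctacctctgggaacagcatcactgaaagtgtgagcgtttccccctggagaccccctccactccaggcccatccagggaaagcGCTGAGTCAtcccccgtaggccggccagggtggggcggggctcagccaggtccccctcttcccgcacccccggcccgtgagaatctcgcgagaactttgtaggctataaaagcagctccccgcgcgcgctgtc
Sod1: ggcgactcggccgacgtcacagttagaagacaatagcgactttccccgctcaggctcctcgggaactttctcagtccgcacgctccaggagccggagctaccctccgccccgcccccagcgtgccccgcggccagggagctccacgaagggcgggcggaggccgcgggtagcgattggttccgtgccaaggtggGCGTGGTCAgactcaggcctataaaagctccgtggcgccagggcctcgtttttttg
In Prdx1 the core motif lies on the minus strand, 133 to 125 bases before the start, and overlaps an AP-1 match at 131 to 125 bases. A second AP-1 match lies at 237 to 231 bases. In Sod1 the core lies on the minus strand, 56 to 48 bases before the start. A match of letters does not show that a factor binds there. In the same build the genes of the called members lie at chr5:52363804-52369738 (Sod3), chr11:54902854-54910387 (Gpx3), chr4:116685599-116700000 (Prdx1) and chr8:84969622-84974811 (Prdx2).

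The 4 arrays with the most transcripts of the other tissue all came from 1 of the 5 fluidics runs, run 3. They were quadriceps 1 and 5 and left ventricle 1 of SJL/J, and left ventricle 5 of C57BL/6. Ryr2, the calcium release channel of heart, read 1546.7 and 1672.6 on SJL/J quadriceps 1 and 5 but 2.6 to 271.9 on the other 3 arrays of that group. The summed intensity of 9 cardiomyocyte markers was 57329 and 66636 on this pair, 10806 to 24027 on SJL/J quadriceps 2 to 4, and 6239.8 to 26969 in C57BL/6 quadriceps. Smaller amounts were seen outside run 3. Ryr2 read 271.9 on SJL/J quadriceps 3 and 139.5 on C57BL/6 quadriceps 2, against 4.8 to 10 on the other C57BL/6 quadriceps arrays. Myh4, of fast skeletal fibres, read 5568.4 on C57BL/6 left ventricle 5 and 8512.5 on SJL/J left ventricle 1. Other left ventricle arrays read 10.1 to 777.2 in C57BL/6 and 2.2 to 31.5 in SJL/J. Leaving out run 3 thus does not remove all such transcripts. A scale from C57BL/6 (0) to SJL/J (1) used 84 probe sets that separated the strains in both tissues on arrays outside run 3. On it SJL/J quadriceps 5 lay at 0.574, SJL/J quadriceps 1 at 1.08 and SJL/J left ventricle 1 at 0.872. Both ends of the scale also came from the arrays outside run 3, whose positions near 0 or 1 are thus built in. The differences of the members are therefore also given without run 3. C57BL/6 quadriceps 4 stood apart as well, with a median rank correlation of 0.896 to its group, and it was the only C57BL/6 quadriceps array processed in run 5 together with SJL/J quadriceps 2, 3 and 4.

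RNA integrity differed with strain. The ratio of 5' to 3' signal of Gapdh was 0.831 ± 0.216 (SD, n = 5) in C57BL/6 and 0.503 ± 0.150 in SJL/J quadriceps (two-sided exact permutation p = 0.0397, adjusted p = 0.0397 over 4 ratios). In left ventricle it was 0.797 ± 0.080 (SD, n = 5) and 0.300 ± 0.134 (exact permutation p = 0.00794, adjusted p = 0.0159). Strain and run overlapped almost entirely. Within run 5 the Gapdh ratio was 0.487 on C57BL/6 quadriceps 4 and 0.502 to 0.663 on SJL/J quadriceps 2 to 4. The other C57BL/6 quadriceps arrays, all of run 1, had ratios of 0.781 to 1.06. In quadriceps the effects of strain and run on this ratio therefore cannot be told apart. Fits that hold run constant rest in quadriceps on 3 SJL/J arrays against C57BL/6 array 4, and in left ventricle on 1 array against 1.

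In quadriceps, SJL/J muscle had more Sod3, the extracellular superoxide dismutase, less Gpx3, the secreted glutathione peroxidase, and more signal from 1 probe set of Prdx2, a cytosolic peroxiredoxin abundant in red cells. These 3 were the called members among 12 tested, at an adjusted p under 0.05 in limma, against 11.5% of the 7121 probe sets tested across the array (820 calls). The background was 6.12% for higher and 5.39% for lower calls. The median log2 difference was 0.11 over the 12 members and 0.08 over all tested probe sets. Without run 3 the count of called members was 2, Sod3 and Gpx3, beside 688 of the 7121 tested probe sets.

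**Figure D1:**
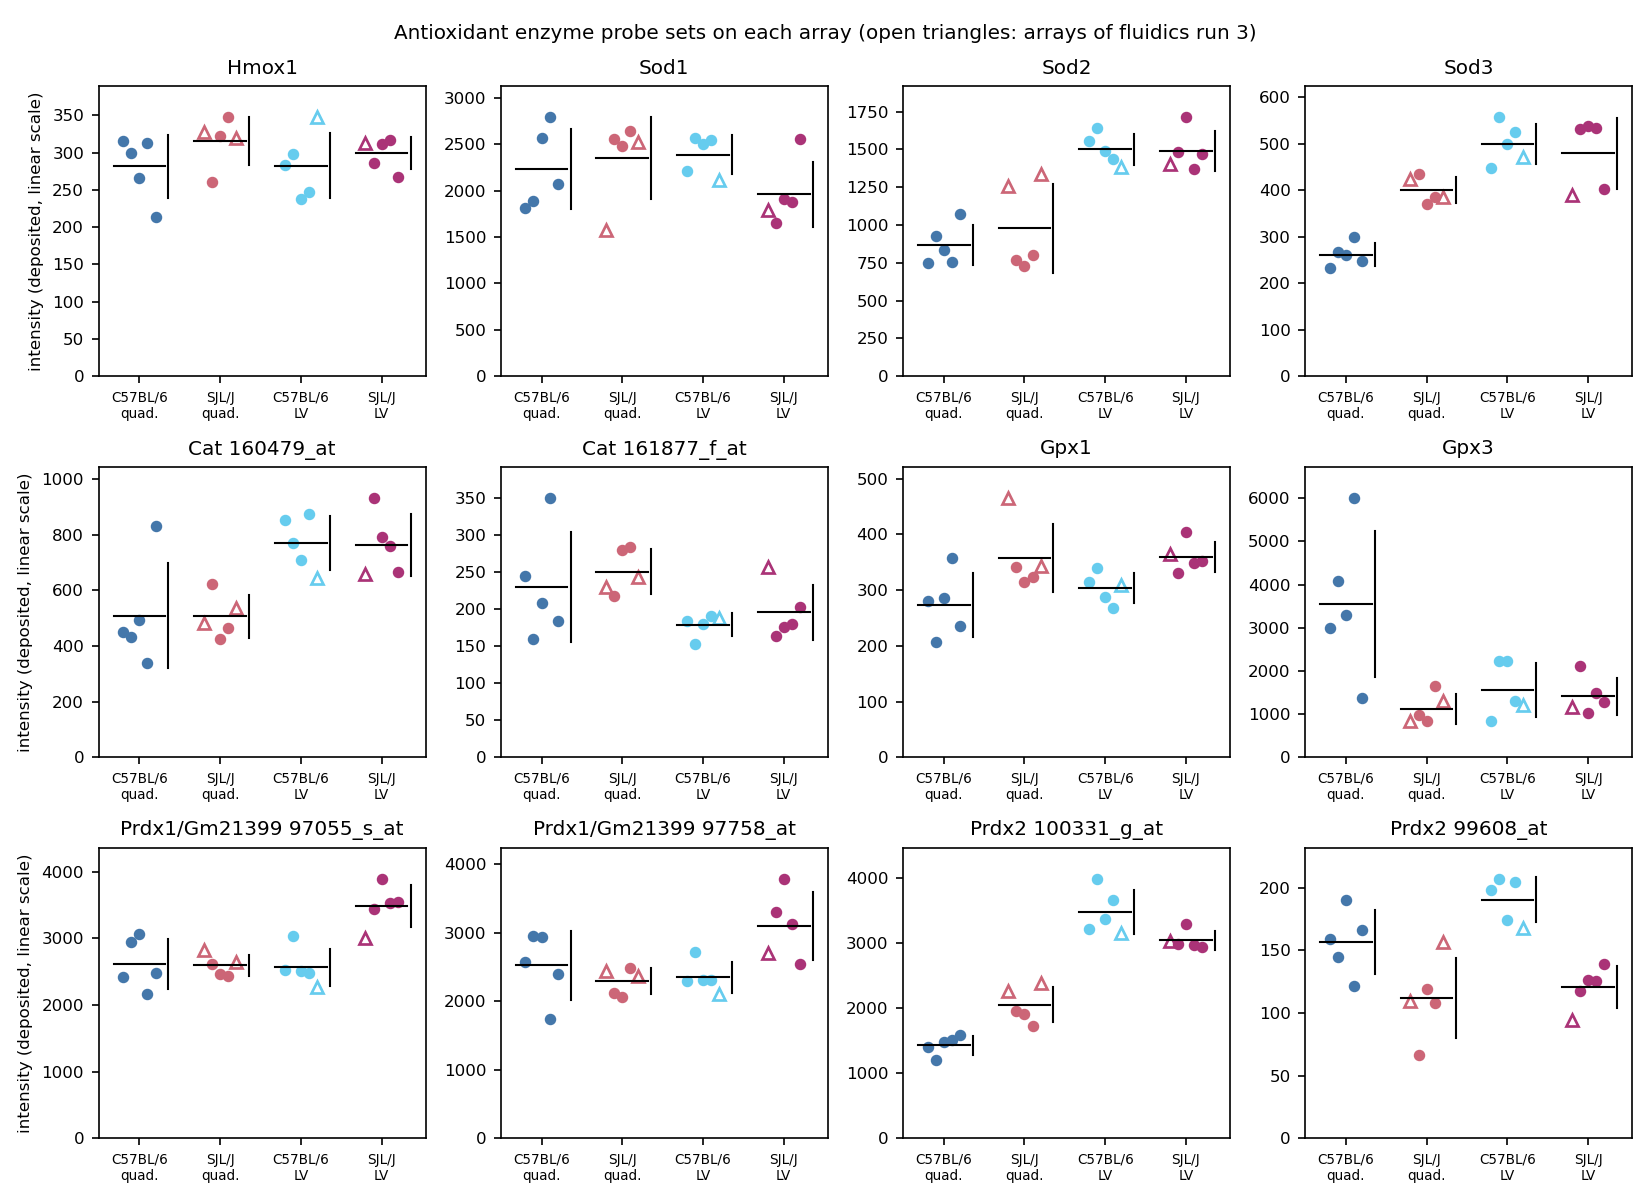
Intensity of each tested antioxidant enzyme probe set (vertical axes, linear deposited units, starting at 0) on each of the 20 arrays, by group; horizontal lines are means and vertical lines SDs of 5 arrays, quad. is quadriceps, LV is left ventricle, and open triangles are arrays of run 3. All 5 SJL/J quadriceps arrays lie above all C57BL/6 quadriceps arrays for Sod3, and Sod2 on SJL/J quadriceps 1 and 5 (1255.7 and 1339.3) lies near the left ventricle arrays.

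Hmox1, the inducible heme oxygenase, read 315.7, 299.6, 266.6, 312.3 and 213.4 on C57BL/6 quadriceps 1 to 5 and 327.3, 261, 321.7, 347.7 and 320 on SJL/J quadriceps 1 to 5. The groups overlapped, and the log2 difference of 0.17 ± 0.16 (SE) did not pass (adjusted p = 0.506), with a 95% interval from -0.17 to 0.51. In left ventricle the ranges were 237.8 to 347.6 and 267.6 to 317.6, and the difference was 0.09 ± 0.12 (adjusted p = 0.591). Macrophages, which make this enzyme when they clear heme, gave more signal in SJL/J quadriceps: 8 of 14 tested macrophage markers were called higher and 0 lower, and the sum of the 18 markers on the array was 2991.7 to 4748.2 against 1448.8 to 2164.3. Across the array 6.12% of tested probe sets were called higher in this comparison. Itgam was the dimmest of the markers in SJL/J quadriceps, at 3.9 to 10. Means of C1qb (261.2 against 375.4), Msr1 (23.5 against 27.6) and Itgam (6.6 against 9.8) were lower in SJL/J than in C57BL/6 quadriceps. Without run 3, 7 markers were called higher and 0 lower, beside 351 of 7121 tested probe sets called higher. In whole tissue, more cells of a type and more RNA per cell cannot be told apart.

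Sod1, the copper and zinc enzyme of the cytosol, read 1814.2, 1892.9, 2571.3, 2792.5 and 2072 on C57BL/6 quadriceps and 1571.2, 2559.3, 2483.1, 2640.6 and 2526.7 on SJL/J quadriceps. SJL/J array 1 was the lowest of all 10, and the other 4 lay within the C57BL/6 range. The difference was 0.08 ± 0.19 (SE, adjusted p = 0.833). In left ventricle C57BL/6 arrays read 2209.7, 2565.4, 2503.3, 2547.5 and 2115.8, and SJL/J arrays 1793.6, 1653.6, 1915.2, 1880.9 and 2551.3. The first 4 SJL/J arrays lay below every C57BL/6 array and array 5 lay among the highest. The difference of -0.30 ± 0.12 did not pass (adjusted p = 0.0691), but it passed without SJL/J left ventricle 5 (-0.40, adjusted p = 0.00627) and in the fit that held the Gapdh ratio (-0.68, adjusted p = 0.0249).

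Sod2, the manganese enzyme of mitochondria, showed no called strain difference in either tissue. In quadriceps it read 748.6, 930.7, 833.4, 755.3 and 1069.8 in C57BL/6 and 1255.7, 766.3, 730.3, 804.6 and 1339.3 in SJL/J. The 2 high SJL/J values belong to the arrays that carry heart transcripts, and heart had higher Sod2 in both strains. The difference was 0.14 ± 0.20 (SE, adjusted p = 0.693) on all arrays and -0.17 (adjusted p = 0.573) without run 3. In left ventricle C57BL/6 arrays spanned 1381.3 to 1643.6 and SJL/J arrays 1370.9 to 1713.3, with a difference of -0.01 ± 0.09 (adjusted p = 0.927) and a 95% interval from -0.21 to 0.18.

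Sod3 was the clearest rise among the members in quadriceps. It read 232.6, 266.5, 260.1, 300.2 and 248.6 on C57BL/6 arrays and 424.4, 435.8, 370.6, 386.3 and 385 on SJL/J arrays. The groups did not overlap, as for 11.4% of tested probe sets in this comparison. The difference was 0.62 ± 0.13 (SE), or 1.53-fold (adjusted p = 0.0124), and the pair of run 3 arrays lay within the range of the other SJL/J arrays. It was 0.61 without run 3 (adjusted p = 0.0342) and 0.63 without SJL/J quadriceps 5 (adjusted p = 0.0213). It was not called when run (0.40, adjusted p = 0.194), chip lot (0.41, adjusted p = 0.198) or the Gapdh ratio (0.51, adjusted p = 0.110) entered the fit. In left ventricle Sod3 read 447.6, 557.8, 500.9, 524.9 and 472.4 in C57BL/6 and 389.3, 531.3, 539.6, 534.4 and 404 in SJL/J, which overlapped (-0.07 ± 0.12, adjusted p = 0.679). The strain difference was thus larger in quadriceps by 0.69 ± 0.17 (interaction, adjusted p = 0.00992, where 14.5% of tested probe sets were called, 8.37% higher and 6.16% lower); it was 0.63 without run 3 (adjusted p = 0.0285) and was not called when run (0.68, adjusted p = 0.221) or lot (0.49, adjusted p = 0.155) was blocked.

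Catalase, the peroxisomal enzyme that splits hydrogen peroxide, was read by 2 probe sets. Probe set 160479_at ranged from 339.6 to 831.9 in C57BL/6 and from 425.5 to 624.3 in SJL/J quadriceps, and C57BL/6 array 5 was the highest of all 10. Its strain differences were 0.05 ± 0.22 (SE) in quadriceps and -0.02 ± 0.12 in left ventricle (adjusted p = 0.914 and 0.915). Probe set 161877_f_at, whose suffix marks probes shared within a family, ranged from 160 to 350 and from 217.3 to 284.6 in quadriceps. Its differences were 0.18 ± 0.21 and 0.11 ± 0.14 (adjusted p = 0.621 and 0.564). Neither probe set moved with strain by more than the spread of the arrays.

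Gpx1, the cytosolic glutathione peroxidase, was higher on average in SJL/J in both tissues without passing in either. In quadriceps it read 280.2, 207, 285.4, 357.6 and 236.2 against 465.2, 342.4, 314.4, 322.8 and 343.2, a difference of 0.40 ± 0.18 (SE, adjusted p = 0.171). The highest SJL/J value was that of array 1, and C57BL/6 array 4 exceeded 4 of the SJL/J arrays. In left ventricle it read 314.4, 340.5, 288, 267.5 and 308.5 against 364.4, 331, 403.8, 348.1 and 352.1, a difference of 0.25 ± 0.10 (adjusted p = 0.0810). Here SJL/J array 2 was the only one that fell within the C57BL/6 range.

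Gpx3, the glutathione peroxidase secreted into plasma and matrix, was lower in SJL/J quadriceps. It read 3000.9, 4091.6, 3305.5, 6005.2 and 1377.3 on C57BL/6 arrays and 852, 976.4, 831.3, 1652.4 and 1295.3 on SJL/J arrays. C57BL/6 array 5 lay inside the SJL/J range, and the other 4 lay above it. The difference was -1.57 ± 0.34 (SE), which is 2.96-fold lower in SJL/J (adjusted p = 0.0125). It was -1.54 without run 3 (adjusted p = 0.0404), between -1.87 and -1.34 when any single array was left out (adjusted p at most 0.0350), and -2.45 with run as a block (adjusted p = 0.0112). Within run 5 alone it was -2.45, from 3 SJL/J arrays against C57BL/6 array 4, the highest of the group. With the Gapdh ratio as a covariate it was -1.74 and did not pass (adjusted p = 0.0548).

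In left ventricle Gpx3 read 848.8, 2242.7, 2220.2, 1295.5 and 1200.5 in C57BL/6 and 1155.8, 2121, 1016.3, 1497.1 and 1293.1 in SJL/J. These ranges overlapped, and the difference was -0.09 ± 0.27 (SE, adjusted p = 0.824), with a 95% interval from -0.66 to 0.48. The interaction was -1.48 ± 0.47 (adjusted p = 0.0385). It was not called in 4 of 10 other settings (adjusted p up to 0.146), among them the fit without run 3 (-1.44, adjusted p = 0.0847). Of the 20 fits that left out 1 array, 11 gave an adjusted p above 0.05. In C57BL/6 these left out left ventricle 1, 4 or 5, or quadriceps 2 or 3. In SJL/J they left out left ventricle 2, 4 or 5, or quadriceps 1, 2 or 3. Adipocyte markers summed to 1272 to 5977.6 in SJL/J quadriceps and 1227.1 to 1907.9 in C57BL/6, with 3 of 7 tested markers called higher and 0 lower, and 6 and 0 without run 3. Across the array 6.12% of tested probe sets were called higher in quadriceps, and 351 of 7121 without run 3. The part of adipocytes in the Gpx3 result was not tested.

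**Figure D2:**
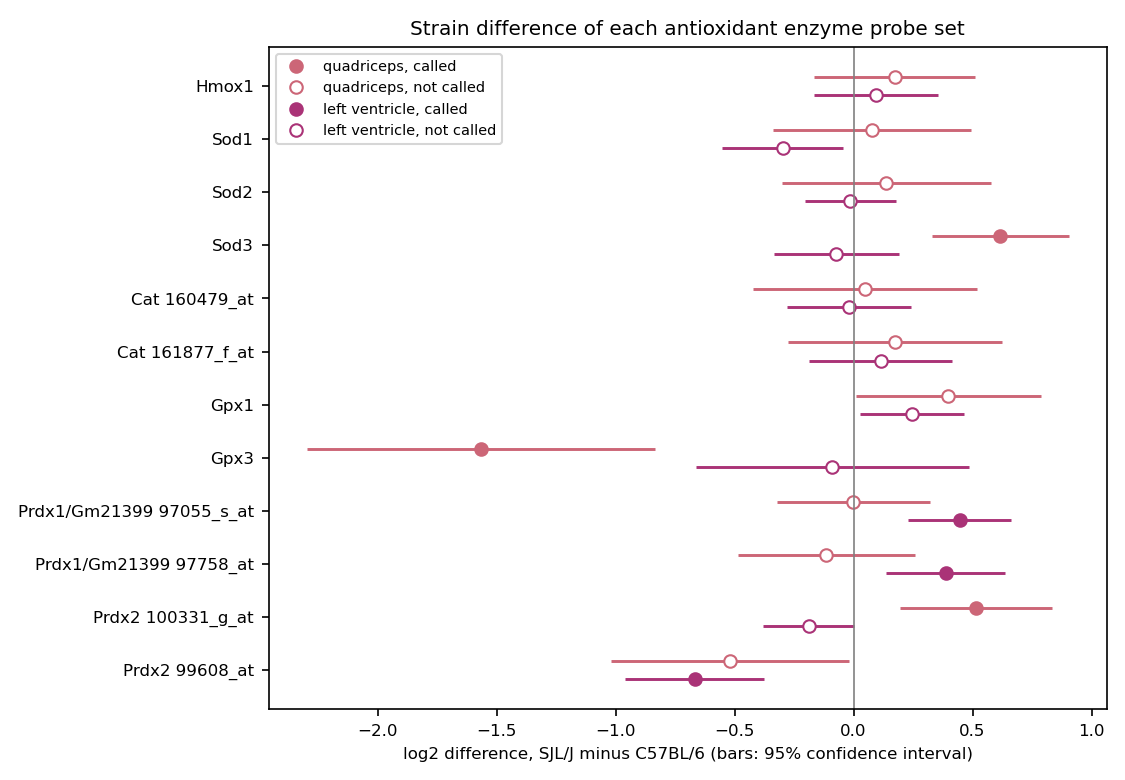
Log2 difference of SJL/J minus C57BL/6 (horizontal axis) for each tested probe set (vertical axis) in quadriceps and left ventricle, with 95% confidence intervals from the limma fit; filled circles are called at an adjusted p under 0.05. The called differences are Gpx3 (-1.57), Sod3 (0.62) and Prdx2 100331_g_at (0.51) in quadriceps, and Prdx2 99608_at (-0.67) and both Prdx1/Gm21399 probe sets (0.45 and 0.39) in left ventricle.

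Prdx1, a peroxiredoxin of cytosol and nucleus and a known Nrf2 target, was read by 2 probe sets whose annotation also lists Gm21399. In GRCm38.p6 Gm21399 is a pseudogene on chromosome 8, so the signal cannot be assigned to Prdx1 alone. In left ventricle both probe sets were higher in SJL/J. Probe set 97055_s_at read 2521.2, 3036.5, 2504.5, 2482 and 2269.8 in C57BL/6 and 3011, 3439.9, 3888.5, 3534.6 and 3548.3 in SJL/J. Only C57BL/6 array 2 and SJL/J array 1 overlapped, and the difference was 0.45 ± 0.10 (SE), or 1.36-fold (adjusted p = 0.00495). Probe set 97758_at read 2300.1, 2716.4, 2316, 2311.5 and 2104.7 against 2702.8, 3308.2, 3780.9, 3126.2 and 2546, a difference of 0.39 ± 0.12, or 1.31-fold (adjusted p = 0.0221). Its call was lost without array 5 of the C57BL/6 hearts (0.35, adjusted p = 0.0552), SJL/J left ventricle 2 (0.36, adjusted p = 0.0545) or SJL/J left ventricle 3 (0.31, adjusted p = 0.0564).

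Together with 1 probe set of Prdx2, these were the 3 called members of 12 in left ventricle, 2 higher and 1 lower. Across the array 32.1% of tested probe sets were called there (16.2% higher and 16% lower), which is near the share of called members. The median log2 difference was -0.02 over the members and 0.04 over all tested probe sets. Without run 3 the count was again 3, and both Prdx1/Gm21399 differences kept their size (0.45 and 0.39). The array-wide share in that setting is not given here. With run as a block none was called (0 of 12): the Prdx1/Gm21399 differences were 0.41 and 0.36 (adjusted p = 0.456 and 0.658), from 1 array against 1. With the Gapdh ratio as a covariate they were 0.33 and 0.56 (adjusted p = 0.287 and 0.130).

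In quadriceps the Prdx1/Gm21399 probe sets gave no called difference. Probe set 97055_s_at spanned 2160.1 to 3060.5 in C57BL/6 and 2441.2 to 2818.3 in SJL/J (0.00 ± 0.15 on the log2 scale, adjusted p = 0.996). Probe set 97758_at spanned 1733.8 to 2955 and 2058.2 to 2484.8 (-0.11 ± 0.17, adjusted p = 0.704). The interactions were -0.45 ± 0.17 and -0.50 ± 0.20 (adjusted p = 0.0756 and 0.103). Without C57BL/6 quadriceps 4 both passed (-0.51, adjusted p = 0.0207, and -0.63, adjusted p = 0.0118).

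Prdx2 was read by probe sets whose differences had opposite signs in quadriceps, where only 1 of them was called, and the same sign in left ventricle. The suffix of probe set 100331_g_at marks the shared gene class. This probe set read 1402.2, 1199.2, 1479.9, 1513.2 and 1583.2 in C57BL/6 quadriceps. In SJL/J quadriceps it read 2274.5, 1967.5, 1911.7, 1734.5 and 2391.4. The groups did not overlap, and the 2 highest arrays were SJL/J quadriceps 5 and 1, which carry heart transcripts. The difference was 0.51 ± 0.15 (SE), or 1.43-fold (adjusted p = 0.0401). The call was lost without run 3 (0.39, adjusted p = 0.132), when run (0.30, adjusted p = 0.308), lot (0.43, adjusted p = 0.247) or the Gapdh ratio (0.38, adjusted p = 0.277) entered the fit, and after median centring (0.43, adjusted p = 0.0778). The call also went in 8 of 10 fits that left out 1 array, all but those without SJL/J quadriceps 4 or C57BL/6 quadriceps 4 (adjusted p from 0.0272 to 0.103 over the 10).

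Probe set 99608_at of Prdx2 had a lower mean in SJL/J in both tissues. In quadriceps it read 159.5, 144.7, 190, 121.7 and 166.7 in C57BL/6 and 109.5, 66.6, 118.9, 108.3 and 156.6 in SJL/J, a difference of -0.52 ± 0.23 (SE, adjusted p = 0.165). In left ventricle it read 198.6, 207, 174, 204.6 and 168.3 against 94.2, 117.4, 126.1, 125.5 and 139.4. There the groups did not overlap, as for 21.7% of tested probe sets, and the difference was -0.67 ± 0.14, or 1.59-fold lower (adjusted p = 0.00274). It was -0.62 without run 3 (adjusted p = 0.00431) and -0.84 with run as a block, where it was not called (adjusted p = 0.220). Probe set 100331_g_at in left ventricle read 3220, 3990.6, 3374.6, 3667.8 and 3165.4 against 3036.7, 2990.9, 3303.2, 2968.9 and 2942.5, a difference of -0.19 ± 0.09 (adjusted p = 0.122).

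For probe set 100331_g_at the strain difference was larger in quadriceps than in left ventricle by 0.70 ± 0.16 (SE, interaction, adjusted p = 0.00646). It was 0.61 without run 3 (adjusted p = 0.0187) and was lost when run (0.36, adjusted p = 0.497) or lot (0.62, adjusted p = 0.0574) was blocked. Probe set 99608_at showed no such difference (0.15 ± 0.26, adjusted p = 0.755). Erythroid markers, read because red cells are rich in Prdx2 protein, summed to 1213.9 to 1548.6 on SJL/J quadriceps 2 to 4, 2875.4 on array 1, 10848 on array 5, and 2063.7 to 4687.8 in C57BL/6 quadriceps. Of 4 tested markers 0 were called in quadriceps, and 2 were called lower without run 3. In left ventricle they summed to 5683 to 10880 in C57BL/6 and 3730.4 to 8823.1 in SJL/J. Their part in either Prdx2 result was not tested.

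Without run 3 the strain differences that had not been called kept an adjusted p above 0.05. In quadriceps they were 0.14 for Hmox1, 0.22 for Sod1, 0.03 and 0.23 for the Cat probe sets (160479_at and 161877_f_at), 0.28 for Gpx1, -0.05 and -0.16 for the Prdx1/Gm21399 probe sets, and -0.70 for Prdx2 99608_at (adjusted p = 0.106, the lowest of these). In left ventricle they were 0.15 for Hmox1, -0.31 for Sod1 (adjusted p = 0.0839, the lowest of these), -0.02 for Sod2 and Sod3, -0.03 and 0.03 for Cat, 0.25 for Gpx1, -0.10 for Gpx3 and -0.22 for Prdx2 100331_g_at. The Prdx1/Gm21399 interactions were -0.51 and -0.55 (adjusted p = 0.0608 and 0.116).

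**Figure D3:**
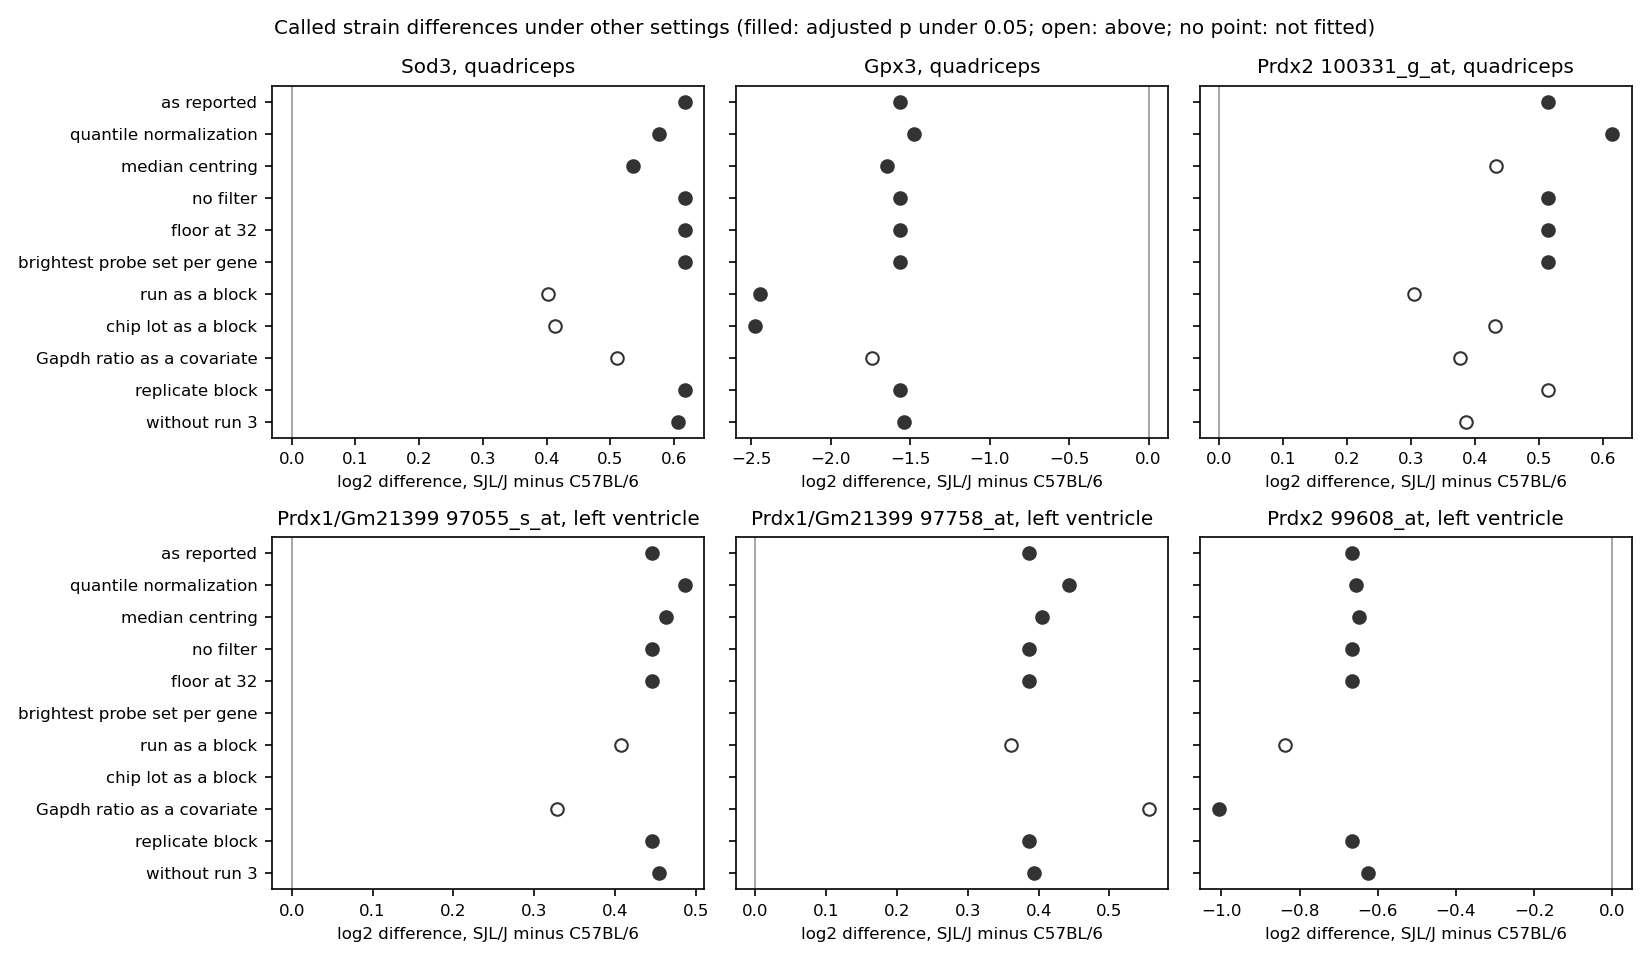
Log2 difference of SJL/J minus C57BL/6 (horizontal axes) for the 6 called strain differences, under the fit used here and each other setting (vertical axis); filled circles have an adjusted p under 0.05. Gpx3 is filled in all settings but the Gapdh covariate, Sod3 is open with run, lot or the Gapdh ratio in the fit, and Prdx2 100331_g_at is open in 6 settings.

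Heart and limb muscle of C57BL/6 mice differed in 5 of the 12 probe sets, 4 of them higher in left ventricle. Across the array 48.4% of tested probe sets were called in this contrast, 29% higher and 19.4% lower in left ventricle, and the median of all tested probe sets was 0.13. The largest was Prdx2 100331_g_at, 3483.7 ± 344.1 (SD, n = 5) in left ventricle against 1435.5 ± 147.3 in quadriceps, a log2 difference of 1.28 ± 0.12 (SE, adjusted p = 4.26e-06). Sod3 was higher by 0.94 ± 0.12 (adjusted p = 4.59e-05) and Sod2 by 0.80 ± 0.13 (adjusted p = 0.000229). These 3 did not overlap between the tissues, as for 35.6% of tested probe sets. Cat 160479_at was higher by 0.66 ± 0.21 (adjusted p = 0.0189) but not when each array was centred on its median (0.50, adjusted p = 0.0819). The other tested probe sets of Cat and Prdx2 were not called. Cat 161877_f_at had the opposite sign (-0.31 ± 0.20, adjusted p = 0.218), and Prdx2 99608_at differed by 0.29 ± 0.15 (adjusted p = 0.132). Gpx3 was lower in heart by 1.13 on the log2 scale, with the difference at -1.13 ± 0.37 (adjusted p = 0.0217). That call was lost without C57BL/6 left ventricle 1 (-0.94, adjusted p = 0.0578) and in 1 of 9 other settings (adjusted p = 0.0501). Without run 3, which removes C57BL/6 left ventricle 5, the same 5 probe sets were called, with differences of 1.31, 0.96, 0.83, 0.72 and -1.06 in the order given.

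In SJL/J mice 5 of 12 probe sets were higher in left ventricle and 0 lower, against 35.4% of tested probe sets called in either direction (19.9% higher and 15.5% lower). Prdx2 100331_g_at was higher by 0.58 ± 0.12 (SE, adjusted p = 0.00368), Cat 160479_at by 0.59 ± 0.14 (adjusted p = 0.00749) and Sod2 by 0.65 ± 0.18 (adjusted p = 0.0172). Both Prdx1/Gm21399 probe sets were higher by 0.42 (SE 0.11 and 0.13, adjusted p = 0.0110 and 0.0278). Sod3 (0.25 ± 0.13, adjusted p = 0.153) and Gpx3 (0.34 ± 0.23, adjusted p = 0.272) were not called. Nor were the other tested probe sets of Cat and Prdx2. Cat 161877_f_at had the opposite sign to 160479_at (-0.37 ± 0.15, adjusted p = 0.0722), and Prdx2 99608_at differed by 0.15 ± 0.22 (adjusted p = 0.620). Without run 3 the Sod2 difference was 0.97 (adjusted p = 5.51e-05) and that of Prdx2 100331_g_at 0.71 (adjusted p = 0.000247). Cat 160479_at then differed by 0.65 (adjusted p = 0.00734), the Prdx1/Gm21399 probe sets by 0.52 and 0.51 (adjusted p = 0.00125 and 0.0137), Sod3 by 0.33 (adjusted p = 0.0639) and Gpx3 by 0.37 (adjusted p = 0.287). Of 12 probe sets 6 were called without run 3, the same 5, all higher, and 1 other. The direction of that other call and the array-wide share in this setting are not given here. Cat 161877_f_at read 163.4 to 202.9 in left ventricle and 217.3 to 284.6 in quadriceps on SJL/J arrays outside run 3. Run as a block compares 1 left ventricle with 2 quadriceps arrays of run 3. In that fit 0 of the members were called, and Sod2 differed by 0.11 (adjusted p = 0.882). Each of these arrays is among those that carry transcripts of the other tissue, so this fit cannot give the difference between unmixed tissues. The second Prdx1/Gm21399 call, of 97758_at, was lost without SJL/J left ventricle 2, 3 or 4 or SJL/J quadriceps 2 or 3 (adjusted p up to 0.0727). The C57BL/6 and SJL/J tissue contrasts share no arrays with each other, but each shares its arrays with the strain contrasts.

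**Figure D4:**
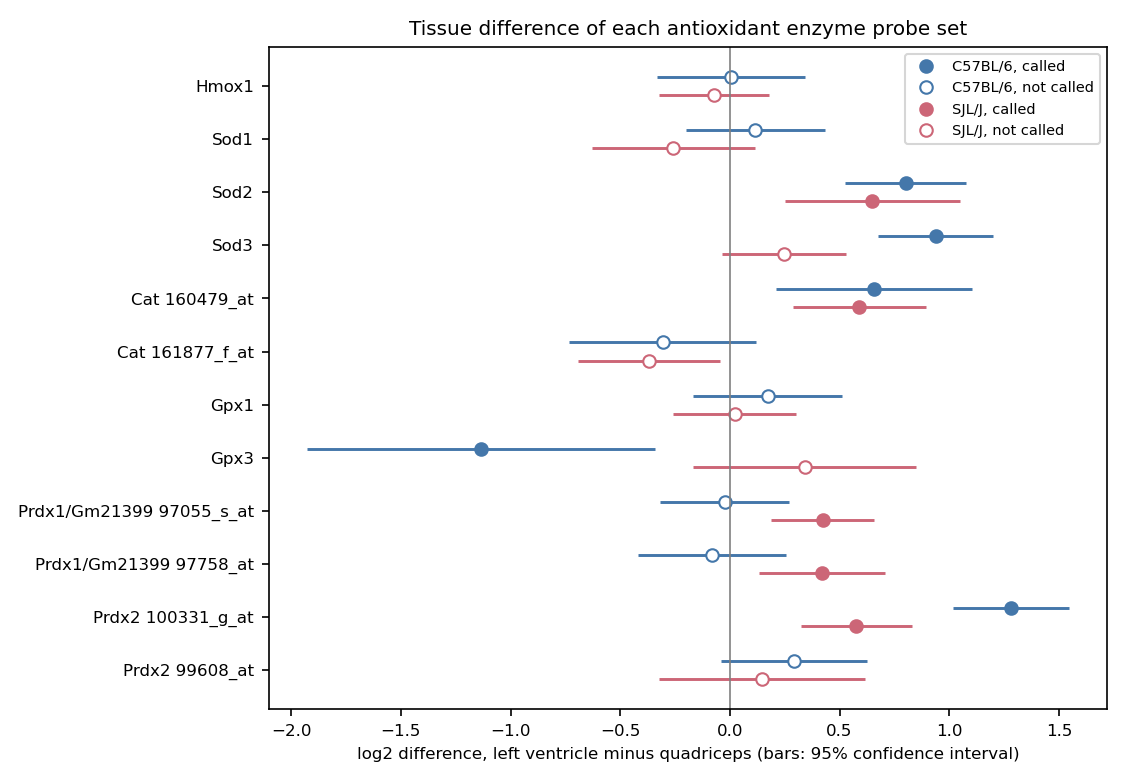
Log2 difference of left ventricle minus quadriceps (horizontal axis) for each tested probe set (vertical axis) in C57BL/6 and SJL/J mice, with 95% confidence intervals from the limma fit; filled circles are called at an adjusted p under 0.05. Prdx2 100331_g_at, Sod2 and Cat 160479_at are called in both strains, and Sod3 and Gpx3 in C57BL/6 alone.

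The order of the 4 groups differed among the genes. Group means of Sod3 were 261.6 ± 25.1 (SD, n = 5) in C57BL/6 quadriceps, 400.4 ± 28.1 in SJL/J quadriceps, 479.7 ± 76.1 in SJL/J left ventricle and 500.7 ± 43.2 in C57BL/6 left ventricle. The first step was larger than the spread, and the SJL/J groups and the heart groups overlapped. For Gpx3 the order was different, with 1122 ± 350 (SD, n = 5) in SJL/J quadriceps, 1417 ± 432 in SJL/J left ventricle, 1562 ± 634 in C57BL/6 left ventricle and 3556 ± 1688 in C57BL/6 quadriceps. The 3 lower groups overlapped. Prdx2 100331_g_at rose from 1435.5 in C57BL/6 quadriceps through 2056 ± 270 in SJL/J quadriceps and 3048 ± 147 in SJL/J left ventricle to 3483.7 in C57BL/6 left ventricle, and only the heart groups overlapped.

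**Figure D5:**
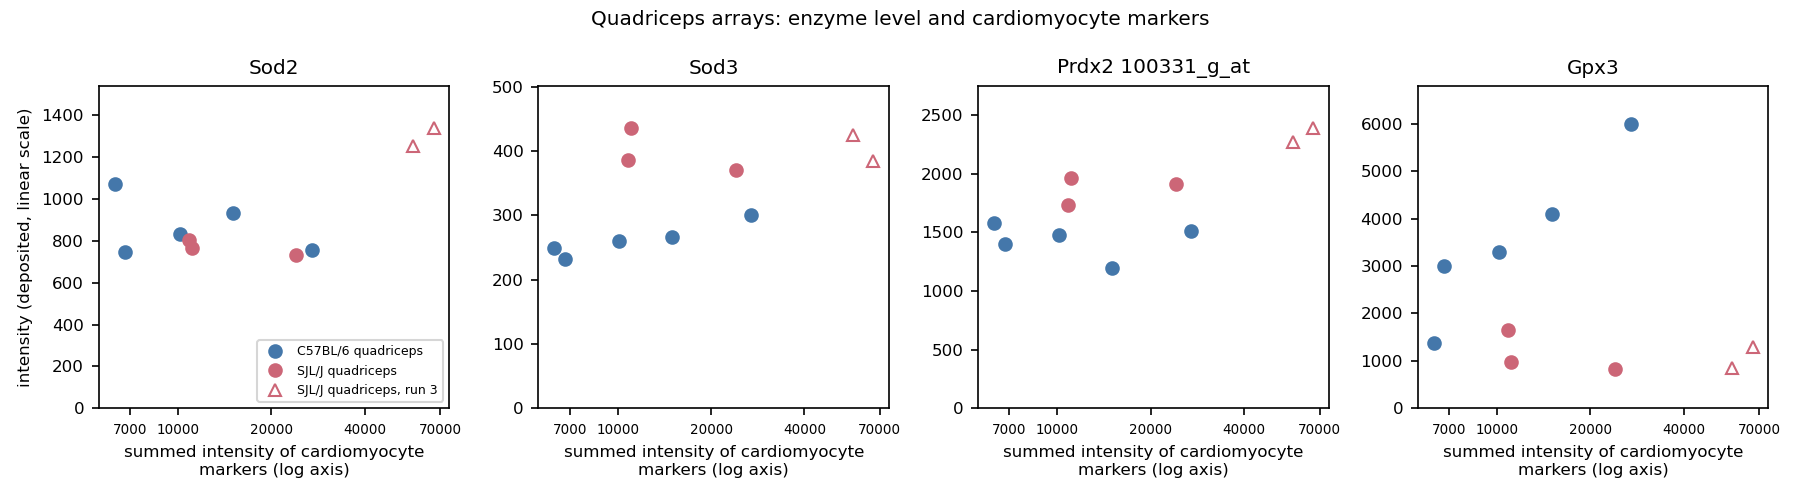
Intensity of Sod2, Sod3, Prdx2 100331_g_at and Gpx3 (vertical axes, linear) on the 10 quadriceps arrays against the summed intensity of 9 cardiomyocyte markers on the same array (horizontal axes, log scale); open triangles are SJL/J quadriceps 1 and 5 of run 3. On these 2 arrays Sod2 (1255.7 and 1339.3) and Prdx2 (2274.5 and 2391.4) are above all other quadriceps arrays, while Sod3 and Gpx3 lie within the range of SJL/J quadriceps 2 to 4.

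The marker plot shows the members on the mixed arrays. Sod2 and Prdx2 100331_g_at, both higher in heart, were highest on the 2 quadriceps arrays with the most heart transcripts. The share of these transcripts in the values was not tested. Sod3, also higher in heart in C57BL/6, read 370.6 to 435.8 on SJL/J quadriceps 2 to 4 against at most 300.2 in C57BL/6. The marker sums of these 3 arrays lay inside the C57BL/6 range, but Actc1, which limb muscle also expresses, makes up most of the highest C57BL/6 sum (23943 of 26969). On SJL/J quadriceps 3 the heart markers Myh6 (4623.2 against at most 3392.5), Tnnt2 (1182.3 against at most 546.3) and Ryr2 (271.9 against at most 139.5) were above every C57BL/6 quadriceps array, whereas on arrays 2 and 4 Myh6 read 82.3 and 225.2. The part of heart transcripts in the Sod3 difference was not tested.

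The arrays of a group agreed closely for most members. The pooled SD within groups on the log2 scale was 0.14 for Prdx2 100331_g_at, 0.15 for Prdx1/Gm21399 97055_s_at, 0.16 for Sod3 and 0.19 for Hmox1, below the median of 0.34 over all tested probe sets. Gpx3 was the most variable, at 0.58, and 82.7% of tested probe sets varied less. Of the other genes, Pkp4 followed Sod2 most closely over the 20 arrays (Pearson r = 0.97, and 0.89 for deviations from the group means), Ccnd1 followed Prdx2 100331_g_at (0.97 and 0.73), Enah followed Sod3 (0.95 and 0.83) and Lrrc59 followed Gpx3 (0.79 and 0.51). The arrays share tissue, strain and run, and these values are a description without a test.

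Other genes of the redox system were counted from 7 lists with 65 tested genes. In quadriceps 3 of them were higher and 2 lower in SJL/J, beside 11.5% called across the array. Txn2, mitochondrial thioredoxin, rose by 0.86 ± 0.12 (SE, adjusted p = 0.00189), Tkt, transketolase of the pentose phosphate pathway, by 1.46 ± 0.39 (adjusted p = 0.0323), and Nfe2l1, a factor related to Nrf2, by 0.57 ± 0.14 (adjusted p = 0.0211). Fech, which inserts iron into heme, fell by 1.25 on the log2 scale (adjusted p = 0.0140) and Nqo1, a quinone reductase and Nrf2 target, fell by 0.75 (adjusted p = 0.0422). Of 10 tested genes of the Nrf2 list, 2 rose, 1 fell and 7 were not called. None of the 8 tested genes of glutathione synthesis and recycling (0) and none of the 17 other glutathione peroxidases and transferases (0) was called. Without run 3 the 65 genes gave 8 higher and 3 lower calls, which included all 5 of these. The added calls, picked here because they were gained, were Txn1, Msrb1, Gstz1, Hp and Mafk (higher) and Xdh (lower). Gstz1, a zeta class transferase, was then the 1 called gene among the 17 glutathione peroxidases and transferases (0.67, adjusted p = 0.0386).

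In left ventricle 9 of the 65 genes were higher and 13 lower in SJL/J, beside 32.1% called across the array and beside the lower 5' to 3' ratios of the SJL/J hearts, whose part in these counts was not tested. Among the other glutathione peroxidases and transferases 5 of 17 fell and 1 rose, led by the microsomal transferases Mgst3 (-2.15 ± 0.14, SE, adjusted p = 3.20e-07) and Mgst1 (-2.02 ± 0.14, adjusted p = 5.42e-07), with Gsto1, an omega class transferase, next (-0.42 ± 0.09, adjusted p = 0.00479). In glutathione synthesis and recycling 2 of 8 rose and 1 fell. Idh2, the mitochondrial enzyme that makes NADPH, fell by 1.80 (adjusted p = 3.79e-05), while its cytosolic counterpart Idh1 rose by 0.71 (adjusted p = 0.00161) and Gclc, the catalytic subunit of the first enzyme of glutathione synthesis, by 0.41 (adjusted p = 0.0245). Of the other peroxiredoxins and the thioredoxin system 1 of 11 rose and 1 fell, Txn1, cytosolic thioredoxin (0.28, adjusted p = 0.0486), and Txn2 (-0.28, adjusted p = 0.0398).

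Of 4 tested sources of superoxide and peroxide, 2 fell and 1 rose in left ventricle. Xdh, xanthine dehydrogenase, which can release superoxide, fell by 2.57 (adjusted p = 1.47e-06), Cyba, a subunit of the phagocyte oxidase, fell by 0.76 (adjusted p = 0.000670), and Rac2, a small GTPase that activates this oxidase, rose by 0.40 (adjusted p = 0.0238). In the Nrf2 list 3 of 10 rose and 0 fell: Bach1, a repressor of Nrf2 targets, by 1.09 (adjusted p = 0.000932), Nfe2l2, which encodes Nrf2, by 0.30 (adjusted p = 0.0361), and Me1, the cytosolic malic enzyme, by 0.46 (adjusted p = 0.0389). In heme and iron handling 2 of 9 fell and 0 rose, Fth1, the ferritin heavy chain, by 0.92 on the log2 scale (-0.92, adjusted p = 0.000146), and Alas1, the first enzyme of heme synthesis (-0.61, adjusted p = 0.00607). Of 6 selenium and copper proteins 2 fell and 1 rose, Atox1, a copper chaperone (-0.80, adjusted p = 0.000370), Atp7a, a copper pump (-1.17, adjusted p = 0.0145), and Selenof, a selenoprotein of the endoplasmic reticulum (0.35, adjusted p = 0.0239).

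Without run 3 the 65 genes gave 8 higher and 18 lower calls in left ventricle, and 18 of the 22 calls remained. The array-wide share in that setting is not given here. The Nrf2 list then held 2 higher and 2 lower calls: Me1 was no longer called (0.32, adjusted p = 0.127), and Nfe2l1 (-0.35, adjusted p = 0.0111) and Taldo1 (-0.35, adjusted p = 0.0466) were. Rac2 (0.39, adjusted p = 0.0581), Txn2 (-0.28, adjusted p = 0.0696) and Gstt2 (-0.80, adjusted p = 0.108), a theta class transferase, lost their calls too. These genes were picked after their values without run 3 were seen.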

How the data were processed

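A total of 20 Affymetrix MG_U74Av2 arrays was compared, 5 per group. The deposited values are 1 linear intensity per probe set and array. The authors scaled them to a common trimmed mean (2nd to 98th percentile, 200.0 to 200.4 on the 20 arrays). For the software and the background correction, the sources used here give no name. Per the labels' protocols, 8 µg of TRIzol-extracted RNA was labelled per sample. Per the file headers there were 2 chip lots and 2 wash protocols, the second for SJL/J quadriceps 1 alone. Fluidics times in these headers, split at gaps over 30 minutes, gave 5 runs of 4 arrays.

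Values under the 5th percentile (3.1) were raised to it and log2 was taken. The 7121 non-control probe sets whose mean exceeded 68.8, the median of all values, in at least 1 group were tested under R 4.3.3 by limma 3.58.1, using lmFit and a trended eBayes, within a tissue or strain on 10 arrays and for the interaction on 20. Benjamini-Hochberg adjustment ran over all 7121, and an adjusted p under 0.05 was a call. The interaction is the quadriceps minus the left ventricle strain difference. Single ratios used a two-sided exact permutation test (scipy 1.17.1). Figures used matplotlib 3.10.9.

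Probe sets were named by the array annotation, in which 10833 probe sets have 1 symbol, 396 several and 1193 none; of these symbols 10817 matched the GRCm38.p6 gene table. Sequence differences between strains under the probes were not tested. Precision is limited by the 5 arrays of a group, each from 1 mouse per the labels. Same-numbered arrays did not deviate together (correlations from -0.20 to 0.13), so numbers were not used as pairs. Members, lists and tests were chosen with earlier results of these data known. All member probe sets are described. Other redox genes are named if called, up to 3 per list and comparison by smallest adjusted p. Alternatives covered scaling, filter, floor, probe sets per gene, run, lot, RNA integrity, replicate number and each array left out. The fits were also run on simulated data with planted changes and independent noise. Those data held no run effect, mixed arrays or difference in RNA integrity, so they do not bear on calls that move with these.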

Additional observations from a re-analysis of the deposited data

Results flagged for a closer look

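Within groups of 5 arrays, 5 of the 48 groups of the tested probe sets held an array far from the other 4, where chance marks about 1 in 20. Hmox1 read 261 on SJL/J quadriceps 2 against 320 to 347.7 on the others. Sod1 read 1571.2 on SJL/J quadriceps 1 against 2483.1 to 2640.6. Gpx1 read 465.2 on the same array against 314.4 to 343.2. That array belongs to run 3, carries heart transcripts, was the only one washed with the second protocol, and had a Gapdh 5' to 3' ratio of 0.268, the lowest of the quadriceps arrays; the part of each in these values was not tested. Cat 161877_f_at read 152.9 on C57BL/6 left ventricle 2 against 179.5 to 190.7. Prdx2 100331_g_at read 3303.2 on SJL/J left ventricle 3 against 2942.5 to 3036.7.

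The strain difference differed between the tissues by the interaction test for 3 of the 12 tested probe sets, beside 14.5% of all tested. It was larger in quadriceps by 0.69 on the log2 scale for Sod3 and by 0.70 for Prdx2 100331_g_at. Neither of these calls held with run or with chip lot as a block. For Gpx3 the interaction was -1.48, and that call was lost in 4 of 10 other settings, among them the fit without run 3.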

How the results depend on the processing

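Fits with run or chip lot as a block rest on very few arrays. C57BL/6 quadriceps 4 alone links the strains in quadriceps, and 1 array of each strain does so in left ventricle. That left ventricle pair, and the run 3 arrays that the run block of the SJL/J tissue contrast rests on, carry transcripts of the other tissue. In quadriceps the count of called probe sets was 820, and 343 after adding the Gapdh ratio to the fit; left-out arrays gave 512 to 1238, with 525, 521, 512, 525 and 1238 without SJL/J quadriceps 2 or 3 or C57BL/6 quadriceps 2, 3 or 4. The count of called members there was 3, and 1 with run or lot as a block and 0 with the Gapdh covariate. In left ventricle 2288 probe sets were called, 62 with run as a block and 323 with the Gapdh covariate. The 3 members called there became 0 with run as a block, and 0 with the brightest probe set per gene, which by construction drops Prdx1/Gm21399 (several symbols) and Prdx2 99608_at (not the brightest). The interaction gave 1035 calls, 324 with run as a block and 780 to 1579 with arrays left out (1579 without C57BL/6 quadriceps 4); its 3 called members became 0 with run and 1 with lot as a block, and 2 to 5 with arrays left out (5 without C57BL/6 quadriceps 4). The SJL/J tissue contrast gave 2519 calls, 16 with run as a block and 1071 with the Gapdh covariate; its 5 called members became 0 and 2, and 3 with the brightest probe set per gene. The cause of these changes was not tested beyond what the construction shows.

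Members that were not called changed sign as follows, none of them passing. In quadriceps with run as a block the log2 differences were -0.020 (Hmox1), -0.13 (Sod1), -0.44 (Cat 161877_f_at), -0.13 (Gpx1), 0.21 (Prdx1/Gm21399 97055_s_at) and 0.35 (97758_at); with lot as a block -0.27 (Sod1), -0.49 (Cat 161877_f_at), -0.015 (Gpx1), 0.26 and 0.40 (the Prdx1/Gm21399 probe sets); with the Gapdh covariate -0.045 (Sod2), -0.024 (Cat 161877_f_at), 0.016 and 0.023 (Prdx1/Gm21399); with median centring -0.0047 (Sod1) and -0.034 (Cat 160479_at); with quantile normalization 0.071 (Prdx1/Gm21399 97055_s_at); and without run 3 -0.17 (Sod2). Left-out arrays gave -0.082 to 0.24 for Cat 160479_at and -0.067 to 0.058 for Prdx1/Gm21399 97055_s_at. In left ventricle with run as a block they were -0.15 (Hmox1), 0.024 (Sod2) and 0.033 (Cat 160479_at); with the Gapdh covariate 0.038 (Sod3) and 0.061 (Cat 160479_at); and for Sod2 0.00085 with quantile normalization and 0.0047 with median centring. Left-out arrays gave -0.065 to 0.020 for Sod2, -0.096 to 0.029 for Cat 160479_at and -0.28 to 0.066 for Gpx3. The interaction of Prdx1/Gm21399 97758_at was 0.014 with lot as a block, and the SJL/J tissue difference of Sod3 was -0.054 with run as a block.

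With replicate number as a block (replicate block), the quadriceps difference of Prdx2 100331_g_at stayed 0.51 with an adjusted p of 0.0670, the SJL/J tissue difference of Prdx1/Gm21399 97758_at had an adjusted p of 0.0799, and no other member call followed here changed. The block gave 659 called probe sets in quadriceps and 1923 in left ventricle. A lot block for the left ventricle and SJL/J tissue contrasts and a run block for the C57BL/6 tissue contrast could not be fitted.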
